A study of Mus musculus with 84 samples.

Results

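Control reprogramming was followed from day 3 to day 6, an interval in which epithelial junction genes rose and smooth muscle contractile genes fell. The libraries were chosen by their titles as those of the control vector on these 2 days, which gave 6 libraries, 3 per day, made from 18 wells. The whole series holds 30 libraries made from 84 wells. The cells were TNG MKOS mouse embryonic fibroblasts (MEFs) of strain background 129, derived from midgestation chimeric embryos of both sexes that had been made by aggregation with a single embryonic stem cell (ESC) line. All of them carried a Nanog-GFP knock-in that disrupts 1 Nanog allele, and, in the Sp3 locus, a CAG-driven rtTA and the MKOS cassette, which doxycycline turns on and which joins the factors c-Myc, Klf4, Oct4 and Sox2 to mOrange. They were mixed with wild-type MEFs as feeders and infected with a retroviral vector for a blue fluorescent protein (BFP; Cont). Reprogramming medium was ESC medium with 100 U/ml LIF, 300.0 ng/ml doxycycline and vitamin C, and mOrange+ cells were sorted on each day. Comparison groups were the same cells infected with constitutively active Smad3 (+Sm3CA) on the same days, wild-type 129 MEFs grown with FGF2 and heparin, and TNG MKOS ESCs, with 3 libraries each.

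Reprogramming by the Yamanaka factors passes through a mesenchymal-to-epithelial transition (MET). Fibroblasts lose actin stress fibres and matrix production, and gain cell-cell junctions built from E-cadherin, claudins and desmosomes before the pluripotency network is active. In fibroblasts the zinc finger repressors of the Snail and Zeb families hold junction genes silent through E-box motifs in their promoters, and Klf4 is known to activate E-cadherin.

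RNA was measured by STRT RNA-seq (single-cell tagged reverse transcription), which sequences the 5′ ends of transcripts, and the deposited values were read counts per gene and well. The Cont libraries held 1288666 to 1935592 reads on day 3 and 1588047 to 2216192 on day 6, within the range of 1008596 to 2296059 over all 30 libraries, and mitochondrial transcripts took 17.4% to 19.1% of reads on day 3 and 15.8% to 22.4% on day 6. In these 6 libraries 3 reads, the detection floor used here, were 2.08 to 3.89 normalized counts (counts divided by DESeq2 size factors). Day 3 wells lay in plate rows A to C and day 6 wells in rows D to F, so the day and the plate rows cannot be told apart. In a bulk sample, fewer cells of a type and less RNA per cell cannot be told apart either.

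The labelled cell state was checked against markers first. Vim, the intermediate filament of fibroblasts, stood at 634.7, 773 and 899 normalized counts in the day 3 libraries and at 556.6, 470.1 and 455 on day 6, below its mean of 4133 in MEFs. Dcn, which encodes the matrix proteoglycan decorin, stood at 454.6 to 682.8 on day 3 and 542 to 644.4 on day 6, above its mean of 60 in MEFs. Dcn went against its list, since the 40 fibroblast identity genes summed to 8224 to 10370 normalized counts in MEFs. Their sums were 2232 to 3216 on day 3 and 1566 to 1931 on day 6. Nanog had no read on day 3 and 1 read in a single library on day 6 against a mean of 202 normalized counts in ESCs, and Dppa3 and Eras were at 0 on day 3. The naive markers Zfp42 and Dppa5a were detected in all 6 libraries, at 7.78 to 14.6 and 8.02 to 27.2 on day 3 and at 24.9 to 26.3 and 9.66 to 11.5 on day 6, against means of 2812 and 32820 in ESCs. Fibroblast transcripts were thus present on both days, though their list as a whole was well below its MEF level by day 3. These 5 pluripotency genes were far below their ESC levels.

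Between the 2 days, 934 of 10237 genes tested changed (quasi-likelihood test of edgeR, p under 0.05 after Benjamini-Hochberg adjustment, called in what follows), which is 9.12% of all genes tested. On day 6, 503 of them were higher (4.91%) and 431 lower (4.21%). The median log2 fold change was 1.30 over the higher genes and −0.87 over the lower ones, and 347 of the higher (69%) but 162 of the lower genes (37.6%) differed by more than 2-fold. More than 4-fold differences were held by 122 higher and 30 lower genes. Of the higher genes 59 had 3 reads or fewer in every day 3 library, so their fitted folds depend on the prior count, while 9 of the lower genes had 3 reads or fewer in every day 6 library. The libraries of the 2 days did not overlap for 492 of the higher and 429 of the lower genes, while they did not overlap for 32.1% of all genes tested. The genes were called from these same libraries, so nothing is read from that difference. The median log2 fold change of all genes tested was 0.02. When single libraries were left out, 529 to 772 genes were called. Without day 6 replicate 2 there were 529, of which 511 were among the 934, and without day 3 replicate 1, day 6 replicate 1 or day 3 replicate 2 there were 558, 572 and 584.

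**Figure D1:**
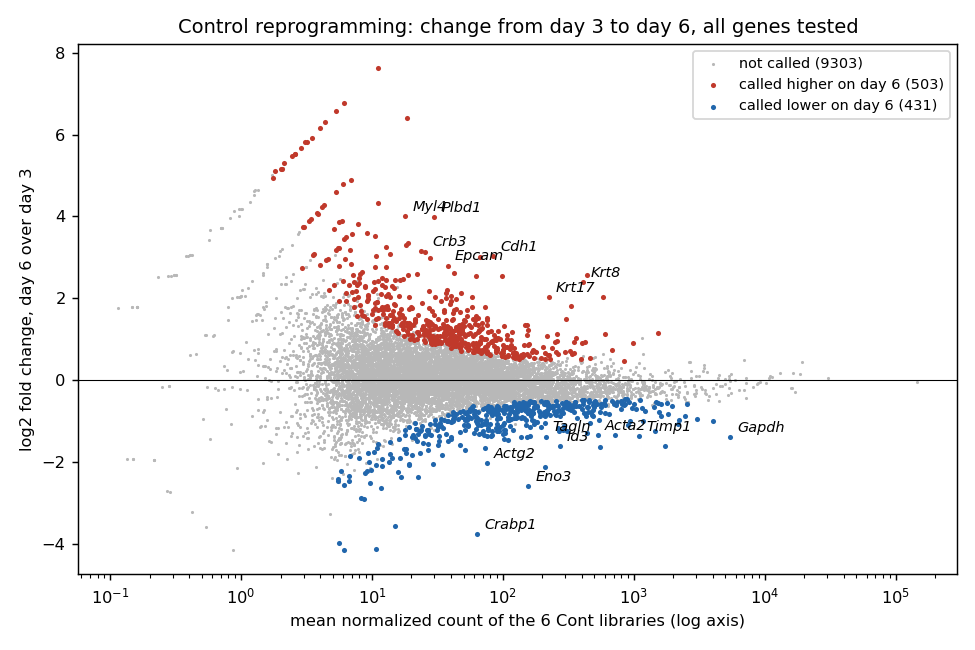
Mean normalized count of the 6 Cont libraries (horizontal, log axis) against the log2 fold change of day 6 over day 3 (vertical) for the 10237 genes tested. Red points are the 503 genes called higher, blue points the 431 called lower and grey points the genes not called. The higher genes reach log2 fold changes above 4 at low counts, and the lower genes are spread over high counts, with Gapdh among the most abundant.

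The epithelial genes are shown first by their promoters, since 4 junction and keratin genes that rose carry the same E-box in the 300.0 bases around their start. The letters searched were CAGGTG on both strands (CACCTG on the other), the motif bound by Snail and Zeb repressors, and this search was chosen after the expression values were seen. Windows end 50 bases after the RefSeq start of GRCm38.p6. Epcam at chr17:87635729-87636028 (plus strand), Krt8 at chr15:102004293-102004592 (minus), Crb3 at chr17:57061951-57062250 (plus) and Spint2 at chr7:29281928-29282227 (minus) are given 5′ to 3′ with each match in capitals.
Epcam: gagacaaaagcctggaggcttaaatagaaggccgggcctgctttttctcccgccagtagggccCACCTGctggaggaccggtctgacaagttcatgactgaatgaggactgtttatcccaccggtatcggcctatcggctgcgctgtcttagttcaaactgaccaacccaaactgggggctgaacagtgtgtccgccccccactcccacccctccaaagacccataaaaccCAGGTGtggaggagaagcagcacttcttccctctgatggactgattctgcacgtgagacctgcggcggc
Krt8: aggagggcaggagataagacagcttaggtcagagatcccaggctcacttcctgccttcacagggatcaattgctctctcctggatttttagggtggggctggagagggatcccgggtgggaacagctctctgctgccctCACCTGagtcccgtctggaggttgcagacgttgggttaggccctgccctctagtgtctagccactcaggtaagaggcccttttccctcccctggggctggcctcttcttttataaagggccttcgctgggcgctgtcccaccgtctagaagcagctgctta
Crb3: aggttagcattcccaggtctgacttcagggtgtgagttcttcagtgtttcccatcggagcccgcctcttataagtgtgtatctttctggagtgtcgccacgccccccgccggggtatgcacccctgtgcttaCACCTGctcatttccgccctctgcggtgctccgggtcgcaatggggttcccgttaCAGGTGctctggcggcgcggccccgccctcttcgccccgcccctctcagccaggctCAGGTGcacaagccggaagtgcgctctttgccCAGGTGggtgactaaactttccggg
Spint2: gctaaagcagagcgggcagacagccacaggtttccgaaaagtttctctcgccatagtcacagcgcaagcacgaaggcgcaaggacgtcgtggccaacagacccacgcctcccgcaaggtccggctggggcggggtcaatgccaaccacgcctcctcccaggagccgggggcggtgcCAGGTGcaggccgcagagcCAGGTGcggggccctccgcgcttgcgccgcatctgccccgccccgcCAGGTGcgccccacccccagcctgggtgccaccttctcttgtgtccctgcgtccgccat
Matches began 187 and 19 bases before the start of Epcam, 111 before that of Krt8, and 74, 55 and 9 before that of Spint2. Crb3 held 4 matches, beginning 118, 63 and 7 bases before the start of the window shown and at base 25 after it. A second RefSeq window of Crb3 (57061981 to 57062280) places them 148, 93, 37 and 5 bases before its own start. Of the 33 junction and keratin genes tested, 19 had a promoter window, and 17 of these (89.5%) held CAGGTG, as did 8 of the 9 that were called higher. The share was 19.9% over all tested genes with a window (1510 of 7601), 27.2% over those called higher, 15.9% over those called lower and 1 of 9 among contractile genes. The motif was about as frequent over the whole list as among its members called higher (88.9%). These shares describe the letters of the windows and do not show binding. No RefSeq window was used for Cdh1, Krt17, Tagln and Actg2. The transcripts of the repressors themselves were below their MEF levels on both days, and none of those given here was called between the days. Their part in the rise of junction genes was not tested. Snai1 was at 3.89 to 5.35 normalized counts on day 3 and 2.63 to 4.15 on day 6, and Snai2 at 3.57 to 5.19 and 0 to 3.83, against means of 22.1 and 93.3 in MEFs. Zeb1 stood at 14.3, 14.3 and 22.8 on day 3 and at 2.77, 12.4 and 2.63 on day 6 (log2 fold change −1.58, adjusted p = 0.0855 in the edgeR fit), so its libraries did not overlap but the difference missed the threshold. Zeb2 went the other way, from 10.7, 13 and 9.75 to 14.5, 16.3 and 14.9, again without overlap and without passing (0.46, adjusted p = 0.494 in the edgeR fit), and the MEF means of Zeb1 and Zeb2 were 44.8 and 48.9.

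Of the 33 epithelial junction and keratin genes tested, 16 rose (48.5%, beside 4.91% of all genes tested) and 0 fell. The median log2 fold change of the list was 1.14, or 0.92 with Pkp3, which had no read on day 3, set to its lower bound, beside 0.02 over all genes tested. The summed normalized count of the list was 1375 to 1422 in the day 3 libraries and 2641 to 2899 on day 6. With 1 library left out, 11 to 15 members were called higher and 0 lower.

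Krt8, a keratin of simple epithelia (chromosome 15, 101996698 to 102004482, minus strand), had the smallest p-value of all genes. It stood at 131, 153 and 112 normalized counts on day 3 and at 642, 623 and 809 on day 6. All day 6 libraries were thus several times above all day 3 libraries, and day 6 exceeded day 3 by 2.40 ± 0.18 on the log2 scale (estimate and standard error, as in what follows; adjusted p = 7.19e-12). Its means were 2.12 in MEFs and 5.18 in ESCs, far under both days. Krt18, the usual partner of Krt8, did not follow it, with 8.91, 11.7 and 11.4 on day 3 and 4.85, 8.62 and 11.4 on day 6 (log2 fold change −0.38, adjusted p = 0.769).

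Cdh1, the gene of E-cadherin (chromosome 8, 106603351 to 106670246, plus strand), stood at 14.3, 14.3 and 25.2 on day 3 and at 165, 154 and 134 on day 6. The days were far apart, with a log2 fold change of 3.03 ± 0.25 (adjusted p = 3.42e-11) against a mean of 0.864 in MEFs and 174 in ESCs, so that the day 6 level was near that of ESCs. Epcam, an epithelial adhesion molecule, was at 5.35, 5.19 and 16.3 on day 3 and at 56.8, 83.3 and 59.7 on day 6. It was undetected in MEFs and its log2 fold change was 2.79 ± 0.31 (adjusted p = 4.72e-08). Crb3, which sets up the apical membrane domain, went from 2.67, 5.19 and 7.32 to 45, 42.1 and 50.1. The day 6 values lay within a narrow range above all of day 3, and the log2 fold change was 3.13 ± 0.32 (adjusted p = 1.23e-08). Spint2, an inhibitor of membrane-anchored serine proteases, went from 22.3, 14.3 and 17.1 to 106, 114 and 100 (log2 fold change 2.55 ± 0.25, adjusted p = 4.32e-09). The protease matriptase that it inhibits, encoded by St14, rose as well, from 3.41 ± 1.71 (SD, n = 3) to 22.2 ± 4.35 (log2 fold change 2.75, adjusted p = 7.29e-05 in the edgeR fit).

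Members of tight junctions and desmosomes rose less evenly. Cldn4 and Cldn7, claudins of tight junctions, were near 0 on day 3 and at 5.75 to 18.4 and 4.79 to 6.92 normalized counts on day 6 (adjusted p = 0.000539 and 0.0101 in the edgeR fit). Cldn3 (log2 fold change 0.55, adjusted p = 0.277) and Ocln (1.14, 0.553) did not pass. Of the desmosomal genes, Dsp rose from 265.7 ± 24.4 (SD, n = 3) to 410.3 ± 40.9 and Dsc2 from 71.9 ± 2.62 to 129.6 ± 24 (edgeR adjusted p = 0.00449 and 0.00307), while Jup, which encodes plakoglobin, had a log2 fold change of −0.11 (adjusted p = 0.857). Esrp1, an epithelial splicing regulator, went from at most 1.78 to between 3.51 and 18.2 (adjusted p = 0.0015), while its relative Esrp2 had a log2 fold change of 0.39 (adjusted p = 0.559). The epithelial factor Grhl2 was at or under 1 read in all 6 libraries against a mean of 22.5 in ESCs.

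**Figure D2:**
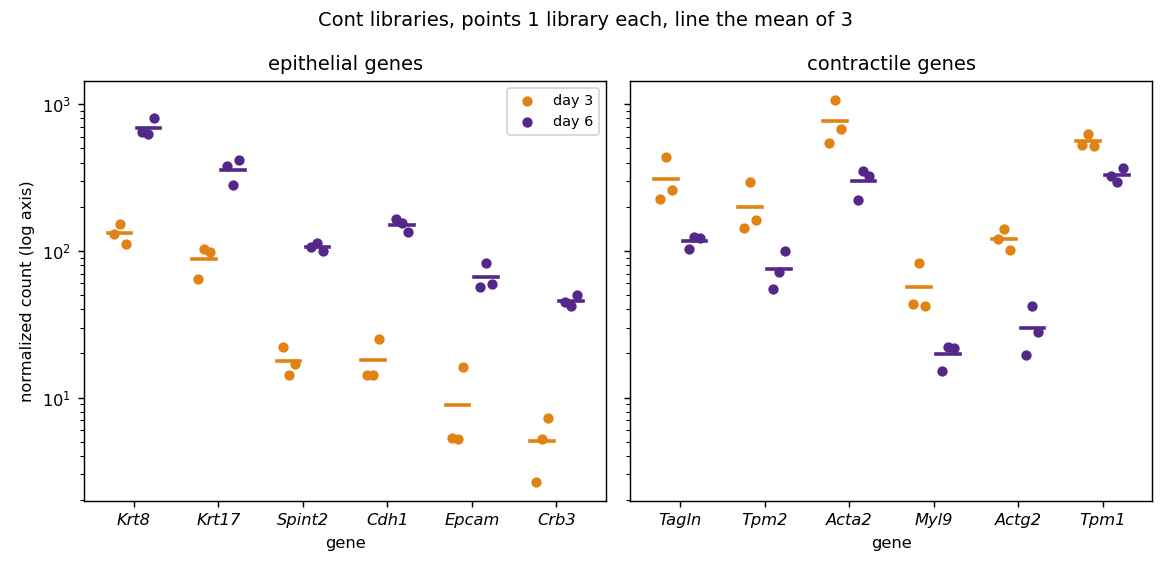
Normalized counts (vertical, log axis) of 6 epithelial and 6 contractile genes in the 3 day 3 (orange) and 3 day 6 (purple) Cont libraries; each point is 1 library and each line the mean of 3. The day 6 points lie above all day 3 points for every epithelial gene shown and below them for every contractile gene shown, with Krt8 at 112 to 153 against 623 to 809 and Acta2 at 546 to 1065 against 222 to 350.

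Keratinocyte genes behaved differently from junction genes. Of 15 genes of the cornified envelope and stratified epidermis tested, 1 rose and 1 fell. That was 13.3% of the list beside 9.12% of all genes tested, and the median log2 fold change was 0.00. Krt17, a keratin of stressed and appendage epidermis, went from 64.2, 104 and 97.5 normalized counts to 376, 280 and 419 (log2 fold change 2.03 ± 0.23, adjusted p = 9.37e-08). Krt14 was already present on day 3 and stood at 208.6, 347.6 and 229.2 there and at 254.1, 214.5 and 295.1 on day 6 (adjusted p = 0.965). Krt16 was lower on day 6 (log2 fold change −0.74, adjusted p = 0.0467), a call that was lost without any of the 3 day 3 libraries or day 6 replicates 1 or 2, where its adjusted p reached 0.268. Krt5 and Trp63, the keratin and the factor that define basal keratinocytes, had 0 reads in all 6 libraries. Type I keratins are close in sequence, so reads can be shared among Krt14, Krt16 and Krt17.

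Large increases were also found outside the epithelial list. Plbd1, a lysosomal phospholipase B-like protein, went from 2.67, 1.3 and 5.69 to 69.2, 29.7 and 70.3, a log2 fold change of 3.98 ± 0.41 (adjusted p = 1.23e-08). Lgals7, the galectin of stratified epithelia, went from 12.5, 16.9 and 15.4 to 126, 87.1 and 143. Its log2 fold change was 3.00 ± 0.38 (adjusted p = 1.15e-06). Dkkl1, a Dickkopf-related protein known from testis, rose from 31.2, 25.9 and 28.4 to 138, 168 and 197. Its log2 fold change was 2.54 ± 0.22 (adjusted p = 2.71e-10), and its means in MEFs and ESCs were 0.947 and 0.857. Ly6g6c, of the Ly6 family of membrane proteins, went from 112, 156 and 115 to 774, 706 and 773 (log2 fold change 2.57, adjusted p = 2.36e-08), and Myl4, an atrial myosin light chain, from 0, 6.49 and 0.813 to 28.4, 45 and 26.4 (4.00, 1.82e-06). Pga5, encoding a pepsinogen, and Serpinb6c, an intracellular serpin, rose by 2.63 and 2.99 on the log2 scale (adjusted p = 1.53e-07 and 1.43e-06 in the edgeR fit).

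The contractile apparatus was lower on day 6. Of 11 smooth muscle contractile genes tested, 9 fell (81.8%, beside 4.21% of all genes) and 0 rose. The median log2 fold change was −1.35 beside 0.02 over all genes tested. With the replicate number as a block 8 fell, and with 1 library left out 7 or 8. The summed normalized count of the list was 2173 to 3296 on day 3 and 1157 to 1354 on day 6, against 39860 to 54570 in MEFs and 372.9 to 578.2 in ESCs. Acta2, smooth muscle α-actin (chromosome 19, 34241090 to 34255590, minus strand), stood at 546, 1065 and 677 on day 3 and at 222, 350 and 324 on day 6. The highest day 6 library was below the lowest day 3 library, and the log2 fold change was −1.35 ± 0.24 (adjusted p = 0.000201). Tagln, the actin-binding SM22, went from 226, 433 and 261 to 102, 124 and 123 (−1.39 ± 0.23, adjusted p = 9.97e-05), and Actg2, enteric γ-actin, from 120, 140 and 102 to 19.4, 42.1 and 28.1 (−2.03 ± 0.26, adjusted p = 1.43e-06). Day 3 replicate 2 was the highest library for all 3 of these genes, and their log2 fold changes with any 1 library left out were −1.54 to −1.04, −1.56 to −1.06 and −2.34 to −1.78. Tropomyosins Tpm1 and Tpm2, the myosin light chain Myl9, caldesmon (Cald1), Cnn2 and filamin A (Flna) also fell, by 0.77, 1.40, 1.49, 0.77, 0.92 and 0.51 on the log2 scale. Cnn1 (−1.39, adjusted p = 0.212) and Actn1 (0.16, adjusted p = 0.783) did not pass. Actin genes are near identical in their coding sequence, so counts of Acta2, Actg2 and Acta1 can share reads. The branched-actin gene Arpc1b fell by 1.21 on the log2 scale (391, 446 and 376 to 161, 190 and 175; adjusted p = 1.01e-05).

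Matrix and fibroblast identity lists had medians below that of all genes, and a minority of their members was called. The shares called were 6.25% of collagens, 16.7% of metalloproteinases and TIMPs, 22.6% of other matrix genes and 23.1% of fibroblast identity genes. Of all genes tested 9.12% were called, so the collagens were under that share. Of 16 collagen genes, Col1a1 was called (98, 167 and 130 to 46.4, 59.4 and 72, log2 fold change −1.15, adjusted p = 0.00966), and this call was lost without day 3 replicate 2 or day 6 replicate 1 (adjusted p up to 0.0801). With the replicate block 2 collagens fell. Among 12 metalloproteinase and TIMP genes, Timp1 and Timp2 fell and 0 rose, and 9 of the 12 log2 fold changes were negative, with a median of −0.69. That median was −1.05 without day 3 replicate 1, −0.41 without day 3 replicate 2 and −0.34 without day 6 replicate 3. The summed normalized count of the list was 1564 to 2287 on day 3 and 838.8 to 1031 on day 6, and most of it was Timp1 on both days. Timp1, an inhibitor of matrix proteases, stood at 1268, 1789 and 1669 on day 3 and at 576, 672 and 579 on day 6 (log2 fold change −1.37 ± 0.24, adjusted p = 0.000229), and its call held with any 1 library left out. The Timp2 call was lost without day 3 replicate 2, day 6 replicate 1 or day 6 replicate 3 (adjusted p up to 0.0627). Of 31 other matrix genes, Bgn, Efemp2, Sparc, Ecm1 and Efemp1 fell, and Pcolce and Lum were called higher, with 2 called lower without day 3 replicate 2. Bgn, the proteoglycan biglycan, went from 156, 161 and 127 to 40.8, 62.2 and 60.6 (log2 fold change −1.45, adjusted p = 0.000475). Pcolce, which enhances procollagen processing, rose from 357, 437 and 342 to 813, 834 and 836 (1.13, adjusted p = 3.28e-05). The Lum call rested on day 6 replicate 2, at 38.3 normalized counts against 1.38 and 0.878, and was lost without it or without day 3 replicate 1 (adjusted p up to 0.613).

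Among 26 genes of fibroblast identity 18 had a negative log2 fold change, the median was −0.64, and the summed normalized count was 2232 to 3216 on day 3 and 1566 to 1931 on day 6. Of these genes S100a4, Cdh2, Runx2 and Lox fell and Gli1 and Lum were called higher, and with 1 library left out 2 to 5 were called lower, with 2 without day 3 replicates 2 or 3 or day 6 replicates 1 or 3. Gli1 was called at adjusted p = 0.00927 and lost without day 3 replicate 3 or day 6 replicate 1 (adjusted p up to 0.066). S100a4, a calcium-binding protein of motile fibroblasts, went from 568, 974 and 978 to 326, 296 and 188 (log2 fold change −1.63 ± 0.31, adjusted p = 0.000534). In 11 S100A genes 5 fell, S100a4 among them, and S100a14, an epithelial member, rose from at most 1.3 to between 6.7 and 13.2 (3.18, adjusted p = 0.00533). These calls were 54.5% of the S100A list, beside 9.12% of all genes tested. Cdh2, encoding N-cadherin, went from 36.5, 49.3 and 56.1 to 24.2, 19.1 and 10.5 (−1.37, adjusted p = 0.00992), a call lost without day 3 replicate 3 or day 6 replicate 3 (adjusted p up to 0.0727). Crabp1, which binds retinoic acid in the cytoplasm of embryonic mesenchyme (chromosome 9, 54764748 to 54773110, plus strand), had the largest decrease among genes with a mean of at least 20 normalized counts. It went from 118, 110 and 128 on day 3 to 6.23, 13.4 and 7.03 on day 6, a fitted 13.6-fold decrease (log2 fold change −3.77 ± 0.40, adjusted p = 1.6e-08), below the ESC mean of 15.

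**Figure D3:**
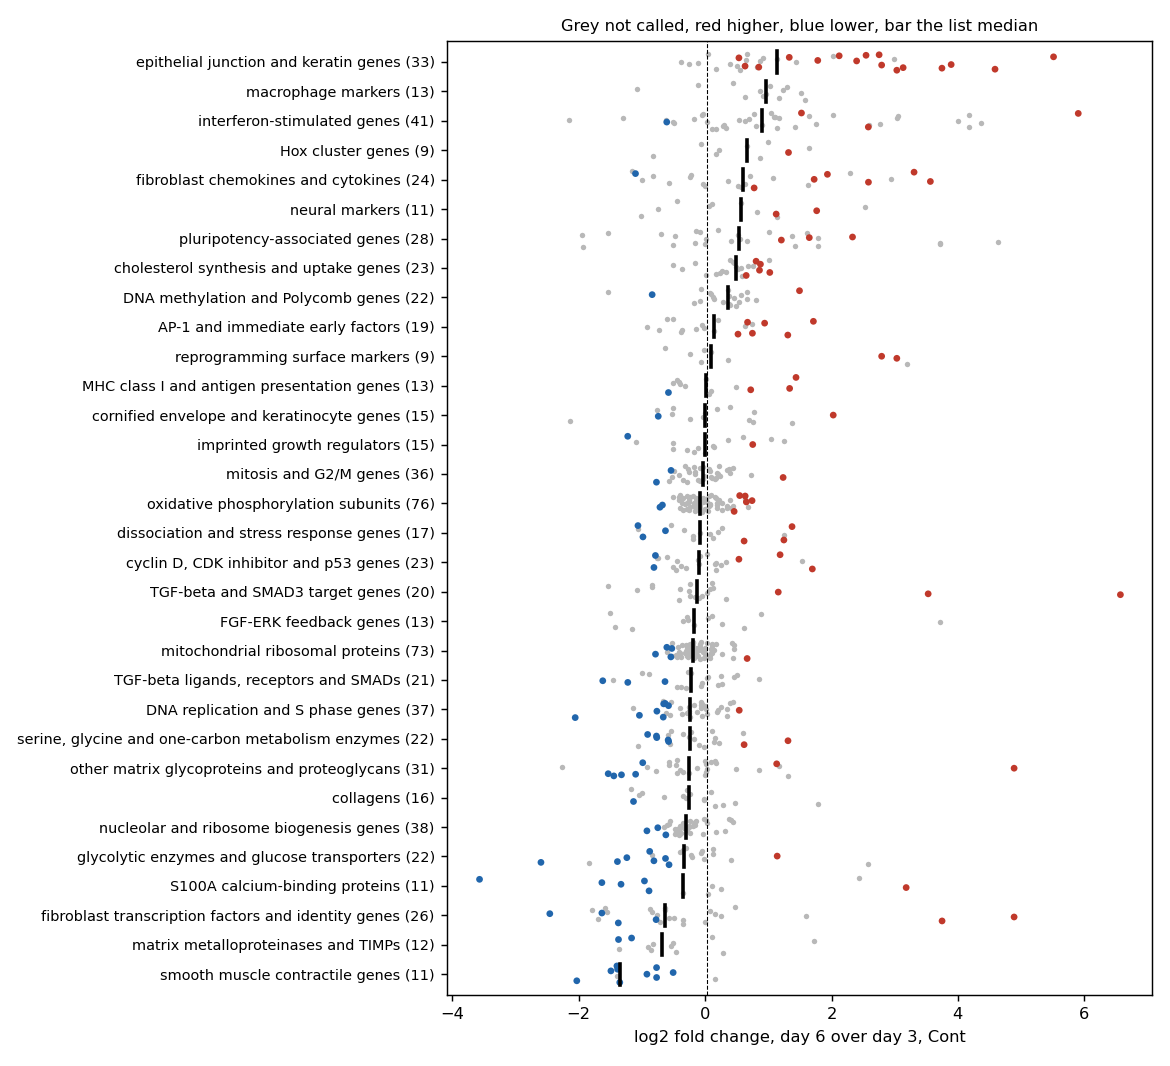
Log2 fold change of day 6 over day 3 in Cont (horizontal) for the tested members of each gene list with at least 9 of them (rows, number tested in parentheses). Red points were called higher, blue points lower and grey points not called; black bars are list medians and the dashed line the median of all genes tested, 0.02. The highest list median is that of the epithelial genes (1.14) and the lowest that of the contractile genes (−1.35).

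Targets and readouts of TGF-β signalling did not move as a list. Of 20 TGF-β and SMAD3 target genes 3 rose (15%, beside 4.91% of all genes tested) and 0 fell, with a median log2 fold change of −0.13. Lefty1 and Lefty2, secreted inhibitors of Nodal, were among the 3. Lefty2 went from 1.78, 0 and 2.44 to 15.2, 23 and 21.1 (log2 fold change 3.53, adjusted p = 2.3e-05). Lefty1 had no read on day 3 and stood at 10.4, 3.83 and 17.6 on day 6, at least 3.53-fold higher when day 3 is set to 3 reads per library (adjusted p = 0.00122). ESCs held Lefty1 and Lefty2 at means of 80.1 and 139. The third, Nox4, an oxidase of fibroblasts, went from 23.2, 25.9 and 26 to 52.6, 57.5 and 58 (1.16, adjusted p = 0.00945), a call lost without day 3 replicate 1 (adjusted p = 0.0514). Ctgf (−0.15, adjusted p = 0.76) and Smad7 (0.12, 0.914), which report TGF-β input in fibroblasts, did not pass. In the list of TGF-β and BMP ligands, receptors, SMADs and Id genes, 3 of 21 fell and 0 rose, and all 3 were Id genes, targets of BMP signalling. They were 14.3% of the list, beside 4.21% of all genes called lower. Id3 went from 364, 475 and 391.8 to 139, 119 and 140 (−1.62 ± 0.21, adjusted p = 1.45e-06) and Id1 from 134, 135 and 167 to 67.8, 43.1 and 74.7 (−1.22, adjusted p = 0.00247). Id2 fell by 0.64 on the log2 scale, and this call was lost without day 3 replicates 1 or 2 or day 6 replicates 1 or 2 (adjusted p up to 0.107). Smad2, Smad3 and Smad4 differed by 0.05, 0.45 and 0.25 on the log2 scale (adjusted p = 0.929, 0.555 and 0.502).

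Of the 28 pluripotency genes tested, 3 (10.7%) rose and 0 fell, where 4.91% of all genes were called higher, and the median log2 fold change was 0.53 (0.46 without 8 members that had no read on at least 1 day and a mean under the floor on the other). The median was 1.23 without day 3 replicate 3, and 0.30, 0.28 and 0.36 without day 3 replicate 1, day 6 replicate 2 and day 6 replicate 3; the number called was 2 or 3 in each case. Pou5f1, which encodes Oct4 and whose counts can include the MKOS cassette, went from 25, 14.3 and 19.5 to 56.8, 75.6 and 57.1 (1.65 ± 0.25, adjusted p = 2.58e-05), below its mean of 274 in ESCs. The other cassette factors did not pass, with log2 fold changes of −0.47 for Sox2, 0.41 for Klf4 and −0.26 for Myc (adjusted p = 0.512, 0.499 and 0.697). L1td1, an RNA-binding protein of pluripotent cells, went from 33, 27.2 and 26.8 to 57.5, 82.3 and 63.2 (1.21, adjusted p = 0.00228), and its ESC mean was 445. The third gene, Sall1, rose to between 5.75 and 13.2, a call lost without day 3 replicates 1 or 3 or day 6 replicate 3 (adjusted p up to 0.134). Esrrb and Gdf3 had no read on day 3 and stood at 0.878 to 1.92 and 0.878 to 4.85 on day 6, against means of 252.8 and 356.9 in ESCs. Tet2, a 5-methylcytosine dioxygenase, rose from 16.1, 16.9 and 17.1 to 49.1, 52.7 and 39.5 (1.49, adjusted p = 0.000604), near its ESC mean of 63.6, while Tet1 stood at 1.3 to 8.13 and 0 to 3.83 (adjusted p = 0.182) against an ESC mean of 629.9. Surface markers used to stage reprogramming had Cdh1 and Epcam called among 9 tested (22.2%, beside 9.12% of all genes). Cd44 and Thy1, which mark fibroblasts, differed by −0.06 and −0.64 on the log2 scale (adjusted p = 0.866 and 0.444), Icam1 of −0.24 (0.755) and Alpl of 3.20 with at most 6.15 normalized counts (0.0568).

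Metabolic genes fell in glycolysis and rose in sterol synthesis. Of 22 glycolytic enzymes and glucose transporters 7 fell (Eno3, Pkm, Gapdh, Gpi1, Ldha, Aldoa and Ldhb) and Pfkfb3 was called higher. Together that was 36.4% of the list beside 9.12% of all genes tested, and the median log2 fold change was −0.33. The summed normalized count of the list was 12700 to 17370 on day 3 and 7901 to 8723 on day 6. Gapdh alone held 6057 to 9505 of it on day 3 and 2729 to 3470 on day 6. Without day 3 replicate 2, day 6 replicate 1 or day 6 replicate 2 the number called lower was 4. The Pfkfb3 call (adjusted p = 0.0318) was lost without any day 3 library or day 6 replicate 2 (adjusted p up to 0.164). Eno3, the muscle form of enolase, went from 272, 326 and 210 to 47.1, 36.4 and 48.3 (log2 fold change −2.60 ± 0.28, adjusted p = 2.01e-08). Gapdh, often taken as a reference gene, stood at 7873, 9505 and 6057 on day 3 and at 2745, 2729 and 3470 on day 6. It was lower in all day 6 libraries (−1.39 ± 0.31, adjusted p = 0.00316), although its many pseudogenes can take or lend reads. Pkm, pyruvate kinase, went from 571, 782 and 554 to 348, 304 and 384 (−0.88, adjusted p = 0.00132). Of 23 genes of cholesterol synthesis and uptake, 5 rose (Fdft1, Hmgcs1, Nsdhl, Sqle and Cyp51) and 0 fell. That was 21.7% of the list, beside 4.91% of all genes called higher. The list had a median of 0.49 and a summed count of 1780 to 1994 on day 3 and 2547 to 2729 on day 6. Without day 3 replicate 2 or 3 the number of its members called higher was 3. Fdft1, squalene synthase, went from 227, 293 and 202 to 532, 460 and 468 (1.02 ± 0.17, adjusted p = 0.000107), and Hmgcs1, which makes HMG-CoA, from 110, 135 and 90.2 to 170, 200.1 and 234 (0.86, adjusted p = 0.0015). Of 22 genes of serine and one-carbon metabolism 5 fell and 2 were called higher, together 31.8% of the list beside 9.12% of all genes tested. The 2 higher genes were the glycine-cleaving enzyme Gldc and the transcription factor Atf4, which the stress list also holds. Without day 6 replicate 2 neither was called, and Gldc was also lost without day 3 replicate 1 and Atf4 without day 3 replicate 3 (adjusted p up to 0.115 for Gldc and 0.130 for Atf4). Among the lower genes was the folate enzyme Shmt1 at 145, 141 and 140 on day 3 and 72.7, 68.9 and 85.2 on day 6 (−0.91, adjusted p = 0.00157), and 2 members were called lower without day 3 replicate 1 or day 6 replicate 1. Oxidative phosphorylation subunits (76 tested, 5 higher and 2 lower) and mitochondrial ribosomal proteins (73 tested, 1 higher and 4 lower) had medians of −0.08 and −0.19. Their shares called were 9.21% and 6.85%, beside 9.12% of all genes tested. Without day 3 replicate 2 or day 6 replicate 1 the subunits gave 0 calls in either direction, and without day 3 replicates 1 or 2 or day 6 replicates 2 or 3 only 1 ribosomal protein was called lower.

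Of 37 replication genes 7 fell and Mcm6 was called higher, together 21.6% of the list beside 9.12% of all genes, with a median of −0.24. Rrm2, a subunit of ribonucleotide reductase, went from 243, 223 and 194 to 148, 130 and 147 (log2 fold change −0.63, adjusted p = 0.0115), a call lost without day 3 replicate 1 or day 6 replicate 2 (adjusted p up to 0.0851). Without day 3 replicate 1, day 3 replicate 2 or day 6 replicate 1 there were 2 members called lower, and without day 6 replicate 2 there was 1. Mcm6 passed at adjusted p = 0.0494 in the edgeR fit but not with the replicate block (adjusted p = 0.0599) nor without any 1 of the 6 libraries. Of 36 mitotic genes 3 were called, 8.33% beside 9.12% of all genes, so the list was near the share of all genes. Called lower were 2 (1 when any library other than day 6 replicate 1 was left out). Cdc25b, a phosphatase that activates CDK1, rose from 25, 31.1 and 25.2 to 72, 71.8 and 45.7 (1.23, adjusted p = 0.00262). Ccnd2, cyclin D2, fell from 741, 769 and 780 to 435, 414 and 457 (−0.81, adjusted p = 0.000281). Of 23 cyclin D, CDK inhibitor and p53 genes 3 rose (Trp53inp1, Bbc3 and Perp) and 2 were called lower (Ccnd2 and Trp53), with a median of −0.10. These calls were 21.7% of the list, beside 9.12% of all genes. The p53 targets Bbc3 and Trp53inp1 rose by 1.70 and 1.19 on the log2 scale (adjusted p = 0.00476 and 0.00316). Trp53 itself, which encodes p53, went from 135.5, 97.3 and 100.0 to 64.4, 62.2 and 66.8 (−0.79, adjusted p = 0.0239), a call lost without day 3 replicate 1 or any day 6 library (adjusted p up to 0.173). The call of Perp was lost without any library other than day 3 replicate 3 (adjusted p up to 0.168).

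Inflammatory genes rose in part. Of 24 fibroblast chemokine and cytokine genes 6 rose and Ptgs2 was called lower, together 29.2% of the list beside 9.12% of all genes tested. The median log2 fold change was 0.60, and the Ptgs2 call was lost without day 3 replicate 2 (adjusted p = 0.0697). The median was 0.40 without day 3 replicate 3 and 0.39 without day 6 replicate 2. Cxcl1, a neutrophil chemokine, went from 5.35, 6.49 and 6.5 to 19.4, 67 and 28.1 (2.58 ± 0.45, adjusted p = 0.000179) and Cxcl16 from 16.1, 18.2 and 23.6 to 51.9, 81.4 and 61.5 (1.73, adjusted p = 7.29e-05). The NF-κB feedback genes Nfkbia and Tnfaip3 rose by 1.94 and 3.31 on the log2 scale (adjusted p = 6.44e-06 and 6.59e-05), Nfkbia from 12.5, 20.8 and 17.1 to 58.8, 73.7 and 58. Irg1, an enzyme of activated macrophages that makes itaconate, went from 2.67, 9.08 and 3.25 to 24.9, 76.6 and 24.6 (3.15 ± 0.51, adjusted p = 6.59e-05), and day 6 replicate 2 was the highest library for Irg1, Cxcl1 and Tnfaip3. Macrophage markers were higher on day 6 in their summed count. The summed normalized count of their list of 16 was 435.7 to 1241 on day 3 and 1612 to 2240 on day 6, of which Lyz2 gave 899, 1026 and 343 and then 1363, 1847 and 1398. None of the 13 tested was called (2 rose with the replicate block, Lyz2 among them at adjusted p = 0.0261). Of their log2 fold changes 11 were positive and 2 negative, with a median of 0.97 beside 0.02 over all genes tested. This median was 0.49 without day 3 replicate 3 and 0.64 without day 6 replicate 2. Means of Ctss and C1qb went from 35.1 to 66.5 and from 14 to 30.65, and that of Laptm5 from 15.9 to 7.46. Ptprc, the pan-leukocyte marker, was at 5.35, 2.59 and 3.25 on day 3 and at 4.85, 0.958 and 4.39 on day 6. Csf1r, near the floor, was at 1.78, 2.59 and 0 on day 3 and at 4.85, 4.79 and 2.635 on day 6. Of the 16 macrophage genes 0 had no read in all 6 libraries. Their part in the chemokine result was not tested. Of 41 interferon-stimulated genes Xaf1, Gbp7 and Usp18 rose and Ifitm2 was called lower, together 9.76% of the list beside 9.12% of all genes tested. The median log2 fold change was 0.90 (0.70 with members that had no read on 1 day set to their bound or left out). Without day 6 replicate 2 the median of 0.90 became 0.59. Of the 41 log2 fold changes 32 were positive. The summed normalized count of the list was 1379 to 1685 on day 3 and 1231 to 1368 on day 6. Ifitm2 and Ifitm3 made up most of it, with means of 601.9 and 619.1 on day 3 and 394.8 and 434.3 on day 6. Usp18 had no read on day 3 and 4.15, 9.57 and 7.03 on day 6, at least 2.31-fold higher. Of 32 members with a RefSeq promoter window 19 (59.4%) held the interferon-stimulated response element motif (both strands; 3.74% of tested genes with a window). Of 13 genes of MHC class I and antigen presentation, Tapbp, H2-K1 and H2-D1 rose and Calr was called lower. These calls were 30.8% of the list, beside 9.12% of all genes tested. Tapbp, which loads peptide onto MHC class I, went from 31.2, 22.1 and 28.4 to 75.5, 79.5 and 70.3 (1.44, adjusted p = 0.00013). The calls of H2-K1, H2-D1, Calr and Ifitm2 did not hold with every library left out (adjusted p up to 0.0834, 0.256, 0.169 and 0.158). H2-K1 was lost without day 3 replicate 3 or day 6 replicate 2, and H2-D1 also without day 3 replicate 2. Calr was lost without day 3 replicates 1 or 2 or day 6 replicates 1 or 2, and Ifitm2 when any library other than day 6 replicate 3 was left out.

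Immediate early factors rose in 6 of 19 (Klf10, Atf3, Maff, Klf6, Dusp1 and Btg2) and fell in 0. That was 31.6% of the list, beside 4.91% of all genes called higher, and the median was 0.13. With 1 library left out 2 to 4 rose, the fewest without day 6 replicate 2 and 3 without day 6 replicate 1 or any day 3 library. Atf3 went from 33, 20.8 and 42.3 to 92.1, 100.5 and 51.8 (log2 fold change 1.31, adjusted p = 0.00316). Cells of both days were trypsinised and sorted, and of 17 genes of dissociation and stress 3 rose (Trib3, Ddit3 and Atf4) and 3 fell (Txnrd1, Hmox1 and Hspb1). Together that was 35.3% of the stress list, beside 9.12% of all genes tested. Fos and Jun differed by 0.13 and 0.62 on the log2 scale (adjusted p = 0.82 and 0.0799 in the edgeR fit). Lists of other lineages were small. Placental, primitive endoderm, mast cell and endothelial markers had 0 calls among 13 tested, Map2 and Nefl rose among 11 neural markers (Nefl not without day 3 replicate 1 or 2, adjusted p up to 0.0722), and both tested markers of skeletal and cardiac muscle were called, Myl4 higher and Acta1 lower. Lpl, a lipase of adipocytes, fell among 4 adipose, cartilage and bone markers (26.7, 35 and 22.8 to 4.15, 6.7 and 5.27; −2.37, adjusted p = 0.00142). The Acta1 call (−2.63, adjusted p = 0.00915) was lost without day 3 replicate 2 or day 6 replicates 1 or 2 (adjusted p up to 0.0909). The embryonic globin Hbb-y fell from 335, 265 and 202 to 105, 163 and 94.9 (−1.15, adjusted p = 0.00996), a call lost without day 3 replicate 1 or day 6 replicates 1 or 3 (adjusted p up to 0.0892).

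Levels in MEFs and ESCs place the 2 days between or outside the end states. ESCs and MEFs differed in 52.3% of the genes tested between them (23.5% higher and 28.8% lower in ESCs). Of the 503 genes that rose in Cont, 314 could be tested there, and 100 (31.8%) were higher and 60 (19.1%) lower in ESCs, against 22.7% and 27.7% of the 8258 genes tested in both comparisons. Of the 431 genes that fell, 403 could be tested, and 219 (54.3%) were lower and 59 (14.6%) higher in ESCs. The remaining 189 and 28 genes were too low in both end states for the test. All 3 day 6 libraries lay above every MEF and ESC library for 255 of the 503 genes that rose (50.7%), and Krt8, Krt17, Dkkl1 and Lgals7 were among them. The share was 13.5% over all genes tested, 7.42% over the 431 genes that fell, and 16.3% for the day 3 libraries of the same 503 genes. These genes were called for high day 6 values, so nothing is read from the difference between these shares. The day 3 libraries lay above every MEF and ESC library for 107 of the 431 genes that fell (24.8%) and for 12.1% of all genes tested, and the same limit holds.

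The later Cont libraries give the onward course of these genes. Means of Cdh1 were 120 on day 8 and 162 on day 10, and those of Epcam 55.5 and 72.6, close to day 6. Krt17 rose further in its means, to 538 and 714. Several genes that fell by day 6 had higher means later, with Acta2 at 578 and 725, Tagln at 202 and 267, Timp1 at 999 and 1817 and Sparc at 1161 and 1742 on days 8 and 10. Between days 6 and 8, which share the day 6 libraries with the comparison above, Acta2 and Actg2 were called higher on day 8 (log2 fold changes 0.94 and 1.18, adjusted p = 0.0267 and 0.012 in the edgeR fit), while Tagln (0.77, adjusted p = 0.0855) and Timp1 (0.70, 0.164) did not pass. Eno3 and Crabp1 stayed low, at 20.1 and 17.2 and at 13.1 and 13.3.

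**Figure D4:**
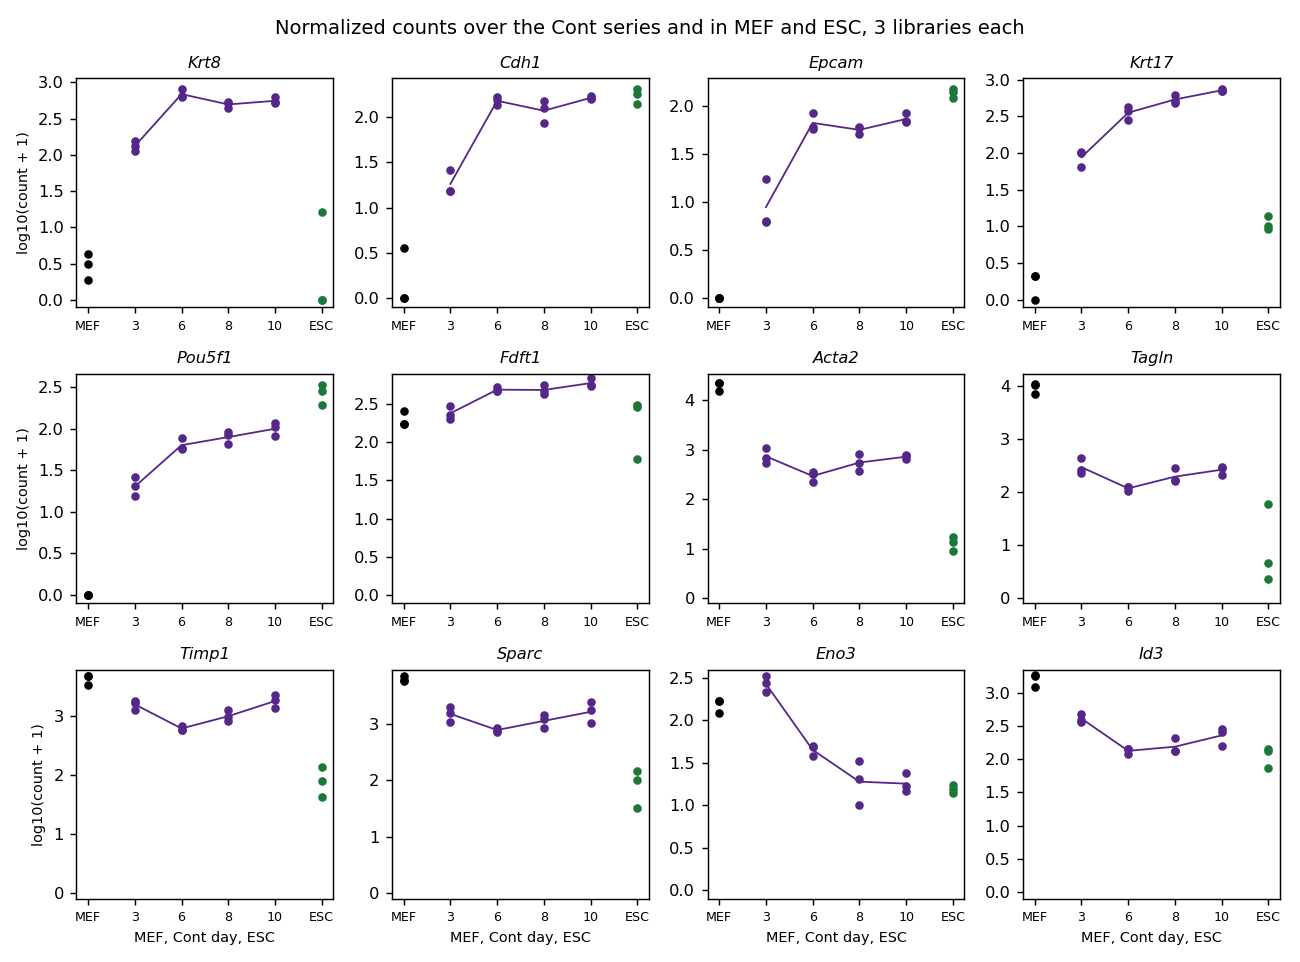
Normalized counts as log10(count + 1) (vertical) in MEFs (black), in Cont libraries on days 3, 6, 8 and 10 (purple, with a line through their means) and in ESCs (green) for 12 genes, 3 libraries each. Krt8 and Krt17 are high only in the reprogramming libraries shown, Cdh1 reaches the ESC level by day 6, and Acta2, Tagln, Timp1 and Sparc are lowest on day 6 among the 4 Cont days.

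The same interval was compared between the vectors. In +Sm3CA cells 18.6% of genes were called from day 3 to day 6 (9.62% higher and 8.97% lower), and the difference between the 2 vectors' changes was called for 0% of genes (0 of 10237, 510 at an unadjusted p under 0.05, lowest adjusted p = 0.658; 0 by the DESeq2 Wald test). Of the 503 genes that rose in Cont, 338 rose (67.2%) and 0 fell in +Sm3CA, which shares no library with Cont, and 495 had a positive log2 fold change. Of the 431 that fell, 343 fell (79.6%) and 0 rose, and 427 had a negative one. Over all genes 53% of log2 fold changes were positive in +Sm3CA. The +Sm3CA wells also lay in plate rows A to C on day 3 and D to F on day 6. The day and the plate rows can thus not be told apart in +Sm3CA either. The epithelial list had 17 members higher and 2 lower there, and the contractile list 0 and 9. Cdh1 changed by 2.42, Krt8 by 1.63, Acta2 by −1.52 and Crabp1 by −2.74 (edgeR adjusted p = 1.75e-09, 1.34e-08, 1.82e-05 and 8.42e-07).

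The interaction depended on the filter and on a single library. Without the filter on low counts 6 genes were called, all with a lower change in +Sm3CA (Krt6a, Tnc, Ly6g6c, Spink12, Krt17 and Chit1), and without day 3 +Sm3CA replicate 1 there were 3 (Krt6a, Ly6g6c and Chit1). Krt6a, a keratin of activated epidermis, stood at 206, 352 and 282 on day 3 and 211, 160 and 206 on day 6 in Cont (log2 fold change −0.53, adjusted p = 0.201), and fell by 2.14 in +Sm3CA (adjusted p = 4.35e-07). Tnc, the matrix protein tenascin C, had log2 fold changes of 0.16 in Cont (adjusted p = 0.836) and −1.93 in +Sm3CA (0.000151). Their day 3 +Sm3CA libraries were 232.6, 606.6 and 470.5 for Krt6a and 158.9, 62.1 and 77.2 for Tnc.

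**Figure D5:**
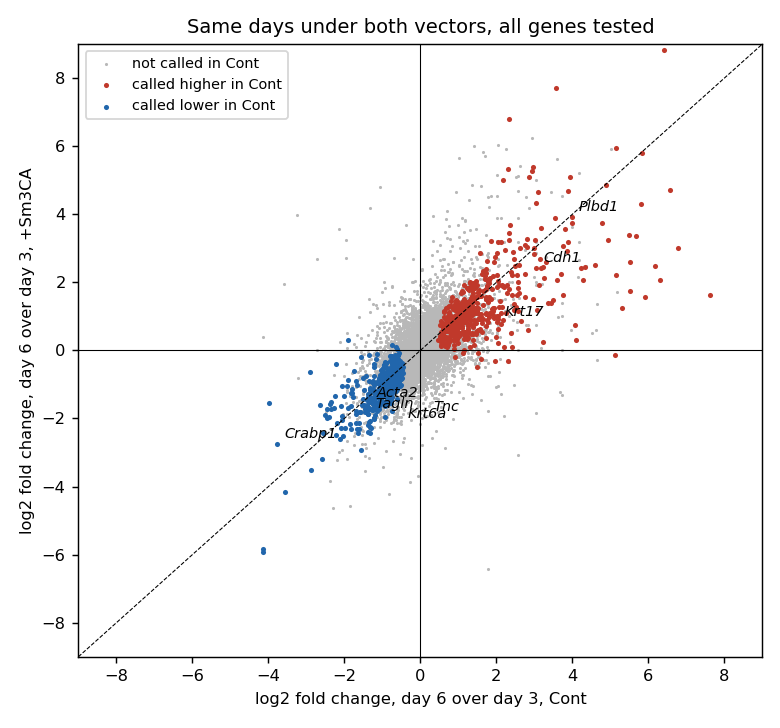
Log2 fold change of day 6 over day 3 in Cont (horizontal) against that in +Sm3CA (vertical) for all genes tested, with the line of equal change dashed. Red and blue points were called higher and lower in Cont. Of the red points 495 of 503 lie above 0 and of the blue points 427 of 431 lie below 0 on the vertical axis.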

How the data were processed

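Cont, +Sm3CA, MEF and ESC samples were profiled by STRT RNA-seq, with 3 biological replicates per group. The deposited file holds raw read counts per gene and well. Per the labels the authors aligned reads to mm10 with Bowtie 0.12.9 and used DESeq2 1.6.3, and the values count reads, not molecules. Wells of 1 replicate were summed, which gave 30 libraries from 84 wells of 1008596 to 2296059 reads, and depth limits low genes to a floor of 3 reads per library.

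Counts were tested with edgeR 4.0.16 in R 4.3.3 (TMM, filterByExpr, quasi-likelihood test) over the 24 reprogramming libraries in 8 groups, which share one estimate of the spread, and p-values were adjusted by Benjamini-Hochberg over all 10237 genes. MEF and ESC libraries were fitted separately. Normalized counts used size factors from DESeq2 1.42.0 over 30 libraries. Gene positions come from GENCODE vM21 and promoters from RefSeq (GRCm38.p6). Scripts were tested on simulated data. A single value from 3 against 3 libraries cannot give an exact permutation p below 0.1, so none is used.

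Named genes were, in each direction, the 12 with the largest change among called genes with non-overlapping libraries and a mean of at least 20 normalized counts, the 6 with the smallest p-values, every MKOS factor and surface marker, up to 3 called members of each other list of the 40 (or the 2 with the lowest p where none was called), and the 2 genes with the lowest p for the difference between vectors. Genes outside this rule were chosen after their values were seen. Members and lists were chosen with earlier results of these data known. The labels state that biological replicates are paired over days. Deviations of same-numbered day 3 and day 6 libraries from their group means correlated at −0.0118, −0.0248 and −0.0328 over genes, so the fit with the replicate number as a block is given as an alternative. Other alternatives were DESeq2's Wald test and size factors, no filter, other sets of libraries, 1 well per library, stricter thresholds and each library left out. P-values measure the spread between replicates within groups, estimated together over all groups of a fit and not from the 2 days alone.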

Additional observations from a re-analysis of the deposited data

How the results depend on the processing

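The 934 genes called in Cont became 450 with 1 well per library, 540 in a fit of all 30 libraries, 1616 with only the 6 libraries compared, 446 at an adjusted p under 0.01 and 509 with a fold change above 2 as well. With 1 library or 1 replicate number left out they were 290 to 772. DESeq2 size factors (941), the Wald test (883), no filter (940) and the 12 Cont libraries (1145) stayed within 1.5 times. The +Sm3CA count was 995 with 1 well per library, 990 at an adjusted p under 0.01, 994 with a fold change above 2 and 1175 to 1850 with a library left out, and the ESC against MEF count was 2658 with 1 well per library and 4021 to 5511 with a library left out. The difference between vectors gave 6 genes without the filter and 0 to 3 with a library left out. Non-overlapping libraries were found for 3225 genes when counts were divided by library totals, a scaling chosen after seeing the data, and for 3285 with size factors. The cause of these differences was not tested.

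With the replicate number as a block, 924 genes were called in Cont, 889 of them among the 934. Of 121 called genes named by rule the block lost Mcm6, Meg3 and Sgce (adjusted p = 0.0599, 0.06 and 0.0524), it gained Lyz2 and Tek, and it changed no other call among them. None of the 121 reversed its direction under the alternatives run, 0 to 4 of the other named genes changed sign in each, and 49 of the 121 were called under all 17. Depth limits genes near 3 reads, where folds depend on the prior count.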
